A study of Homo sapiens with 4 samples.

Results

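The Rab GTPases, a family of small membrane-bound switches that direct vesicle traffic, were followed in MV4;11 cells exposed to CU-T12-9. Members were the rows of the deposited gene count matrix whose symbol is RAB followed by a number and at most one letter from A to D, which gave 61 of 56638 gene symbols. Of these, 49 passed a filter on low counts and were tested, and 12 had too few reads. MV4;11, a human acute myeloid leukaemia line of monocytic type, has the fusion gene KMT2A-AFF1 and the FLT3-ITD mutation, so both groups share these lesions. The receptor pair TLR1/TLR2 is activated by the synthetic small molecule CU-T12-9. Parental cells were kept for 24 h with CU-T12-9 at 1 µg/mL (2 libraries) or with vehicle (2 libraries). The vehicle is DMSO in the sample labels and PBS in the treatment protocol, and the control libraries are called DMSO here.

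A Rab protein cycles between a GDP-bound form in the cytosol and a GTP-bound form on a membrane. Exchange factors load GTP, GTPase-activating proteins return the protein to its GDP form, and GDP dissociation inhibitors (GDI) extract it from the membrane. In the GTP form it recruits effectors such as motors and tethers, and each Rab marks particular compartments. In myeloid cells this system serves phagosome maturation, the sorting of receptors in endosomes and the release of granules.

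The libraries held 25867733 and 23892934 reads for DMSO 1 and 2, and 23201117 and 23087102 for CU-T12-9 1 and 2. Rab genes took 0.240% to 0.241% of these reads in DMSO and 0.247% to 0.260% with CU-T12-9. Levels are given as CPM, read counts scaled to library size, scaled by trimmed-mean factors, and 1 read was worth 0.0384 to 0.0442 CPM. Fold changes, their standard errors and adjusted p-values come from edgeR's quasi-likelihood test over all 14018 genes tested, with Benjamini-Hochberg adjustment and a threshold of 0.05. A gene past that threshold is described as having risen or fallen. Whether libraries of the same group derive from independent cultures is not stated, and the spread behind these p-values may therefore be technical. All 6 blast markers examined (FLT3, CD33, SPI1, HOXA9, MEIS1 and CSF1R) were read in every library, and all 6 were called: FLT3 (-0.31) and CD33 (-0.41) fell, while SPI1 (0.63), CSF1R (0.68), MEIS1 (0.46) and HOXA9 (0.43) rose on the log2 scale. Of 18 markers of other cell types, 7 were at 0 in all 4 libraries, and the 18 summed to 12.3 to 12.4 CPM in DMSO and 9.62 to 10.3 CPM with CU-T12-9. Among them DCN, a fibroblast gene, went from 0 reads in both DMSO libraries to 21 and 15 and was called higher, and ITGA2B, of megakaryocytes, was called lower (-0.38). The part of these shifts in the Rab results was not tested. In bulk RNA, fewer cells that express a gene and less RNA per cell cannot be told apart.

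With CU-T12-9, Rab genes changed in both directions, and their summed level was 1.07 times that in DMSO. Of the 49 tested members, 21 rose, 15 fell and 13 did not pass the threshold, so 73.5% were called against 65.2% of all genes tested. Across all genes, 32.0% rose and 33.2% fell. The Rab share called was thus near the background. Rises outnumbered falls among Rab genes and did not among all genes, but this contrast depended on the cutoff. Among calls of at least 2-fold, 3 Rab genes rose and 7 fell, while 1544 of all genes rose and 1302 fell. The median log2 fold change of the tested Rab genes was 0.16, against 0.00 for all genes. Most of the calls were modest in size. In all, 10 members (20.4%) were called and changed at least 2-fold, against 20.3% of all genes: RAB3C, RAB27B and RAB4B rose, and RAB37, RAB44, RAB15, RAB26, RAB17, RAB38 and RAB6B fell. The count of rises was 13 when DMSO 2 was left out and 28 when CU-T12-9 1 was left out. DESeq2 called 17 higher and 9 lower.

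**Figure D1:**
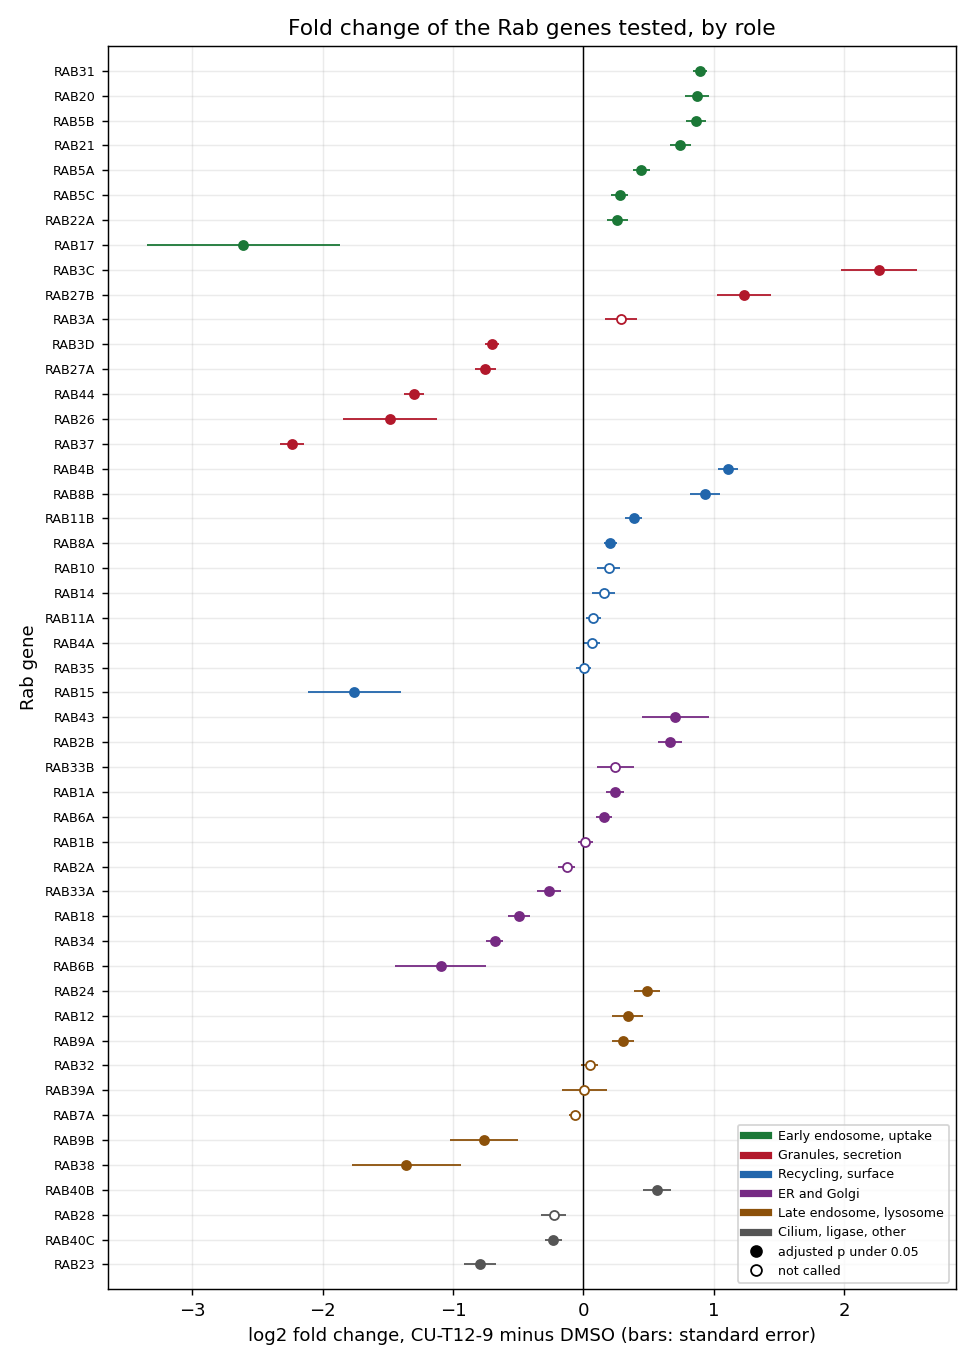
Log2 fold change of CU-T12-9 against DMSO for the 49 tested Rab genes, grouped by the compartment or step they serve, with bars for the standard error and filled points for genes past the threshold. Early endosome genes lie mostly to the right of 0 and granule genes mostly to the left, with RAB37 the lowest of the granule genes at -2.24 and RAB3C the highest Rab gene at 2.27.

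Sorted by role, the family split. The role groups were written by hand with earlier results of these data known. The 8 Rab genes of the early endosome and uptake summed to 330 and 331 CPM in the DMSO libraries and to 503 and 540 CPM in the CU-T12-9 libraries, a ratio of 1.58. The 9 of granules and regulated secretion went the other way, from 304 CPM in both DMSO libraries to 171 and 181 CPM, a ratio of 0.579. Both shifts were larger than the spread between libraries. Such separation was common: the CPM of the groups did not overlap in 82.3% of all genes tested and in 41 of the 49 Rab genes. The 12 of recycling and delivery to the surface summed to 723 and 709 CPM against 784 and 882 CPM. The 6 of the cilium, ubiquitin ligase adaptors and others summed to 74.2 and 79.3 CPM against 69.1 and 67.9 CPM. The recycling and cilium sums did not overlap between the groups either. Sums for the 17 of the endoplasmic reticulum (ER) and Golgi (596 and 599 against 560 and 616 CPM) and the 9 of late endosome and lysosome (364 and 370 against 362 and 368 CPM) overlapped between the groups. All 61 genes together gave 2392 CPM in each DMSO library and 2449 and 2654 CPM with CU-T12-9. These sums are dominated by abundant genes and are given without a test.

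**Figure D2:**
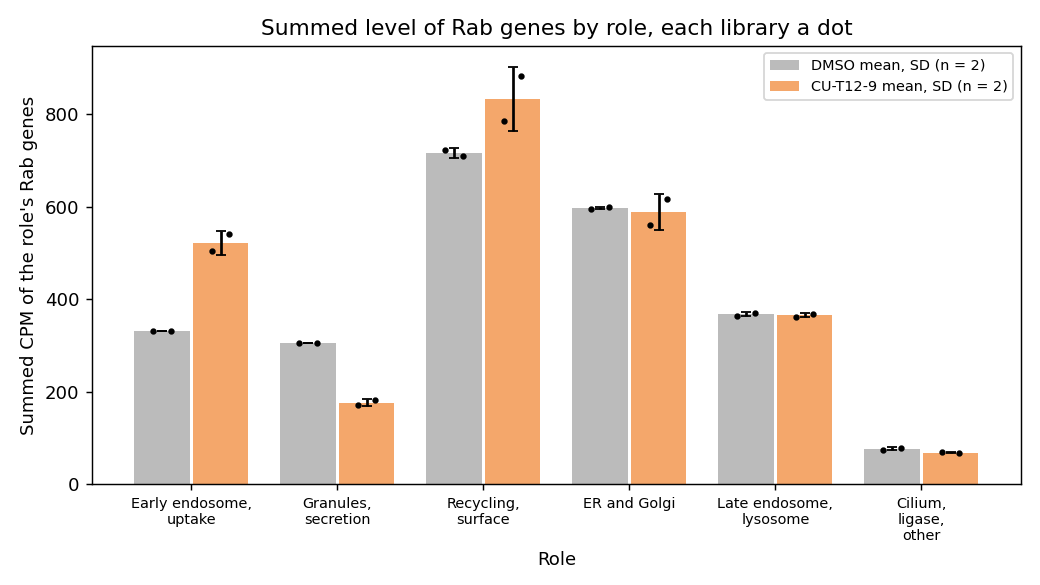
Summed CPM of the Rab genes in each role group: bars are group means, error bars the SD (n = 2) and dots the libraries. The early endosome sum was higher in both CU-T12-9 libraries (503 and 540 CPM against 330 and 331), and the granule sum was lower in both (171 and 181 CPM against 304 in each DMSO library).

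Among the early endosome genes, 7 of 8 rose and RAB17 fell (100% called). Of all genes, 65.2% were called, 32.0% higher and 33.2% lower. RAB31, an early endosome and trans-Golgi Rab that acts in receptor sorting and phagocytosis, was the most abundant of them after treatment. Its level was 110 and 114 CPM in the DMSO libraries and 200 and 216 CPM with CU-T12-9. The groups did not overlap, and the rise was 1.86-fold (log2 fold change 0.89 ± 0.06 SE, edgeR adjusted p = 9.32e-07). RAB31 therefore grew from 4.62% and 4.75% of all Rab reads to 8.18% and 8.13%. All 3 RAB5 isoforms, the switches that define the early endosome and drive its fusion, rose, but by different amounts. RAB5B rose most, from 16.3 and 16.8 CPM to 30.9 and 29.5 CPM (0.87 ± 0.08, edgeR adjusted p = 1.06e-05). RAB5A read 37.6 and 34.9 CPM against 49.4 and 49.2 CPM (0.44 ± 0.07, edgeR adjusted p = 0.000283). The most abundant isoform, RAB5C, moved from 71.7 and 65.7 CPM to 80.7 and 86.0 CPM (0.28 ± 0.06, edgeR adjusted p = 0.00426). Without DMSO 2, the RAB5C call was lost (adjusted p = 0.0968, the highest of its 11 alternatives, which went down to 5.56e-11).

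RAB20, which acts in the maturation of macrophage phagosomes, stood at 15.1 and 17.5 CPM in DMSO and 30.0 and 29.6 CPM with CU-T12-9, a 1.83-fold rise (0.87 ± 0.09, edgeR adjusted p = 2.69e-05). RAB21, which carries integrins into endosomes, rose 1.68-fold, from 49.8 and 52.4 CPM to 79.1 and 92.3 CPM (edgeR adjusted p = 3.14e-05). In both genes the lower CU-T12-9 library lay above the higher DMSO library. RAB22A, a close relative of RAB31 on the early endosome, was at 28.8 and 29.4 CPM against 32.8 and 37.1 CPM (0.26 ± 0.08, edgeR adjusted p = 0.0163). That call was lost without DMSO 1 (adjusted p = 0.105) or without DMSO 2 (adjusted p = 0.0659), and its 11 alternatives ranged from 5.1e-07 to 0.105. RAB17, best known from polarised epithelia, was near the detection floor, with 16 and 25 reads in DMSO and 0 and 6 with CU-T12-9 (edgeR adjusted p = 0.0124).

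Promoter sequence was examined because several early endosome genes rose together. RefSeq promoters (GRCh38.p14, 250 bases before to 50 after a start) were found for 47 of the 61 members, 67 promoters in all. Both strands were searched for the kappaB motif by name, the AP-1 motif TGANTCA and the E-box CACGTG. The kappaB motif was in 4 of 67 member promoters (5.97%), against 5.91% of all 35116 promoters. TGANTCA was in 8 (11.9%), against 7.71%, and CACGTG in 5 (7.46%), against 7.26%. Among tested genes only, the kappaB motif was in 4 of 55 member promoters (7.27%), against 6.72% of 13605. TGANTCA was in 6 (10.9%), against 5.07%, and CACGTG in 5 (9.09%), against 9.32%. These are counts of promoters, and a gene can have several. RAB27A and RAB34 each entered the TGANTCA count more than once. The RAB34 windows with TGANTCA overlap and hold the same site. The longer form CACGTGAC contains CACGTG and was looked at only after the promoters had been read. It was in 4 member promoters (5.97%), against 2.40% of all promoters. Among tested genes it was in 4 of 55 member promoters (7.27%), against 3.76% of 13605. Those 4 belong to RAB5A, RAB21, RAB31 and RAB24. All 4 genes rose, and 3 of them are early endosome genes. The remaining promoter with CACGTG is that of RAB4A, which was not called and lacks the longer form. Because the longer form was chosen after reading, the 4 rises are not a test of these letters. The share of rising genes among all genes with CACGTGAC was not computed. The 250 bases before each start are shown, 5′ to 3′ on the gene's strand, with CACGTGAC on either strand in capitals. In RAB5A the element reads the same on both strands and the overlapping matches are capitalised together.
RAB5A, chr3:19946847-19947096, plus strand: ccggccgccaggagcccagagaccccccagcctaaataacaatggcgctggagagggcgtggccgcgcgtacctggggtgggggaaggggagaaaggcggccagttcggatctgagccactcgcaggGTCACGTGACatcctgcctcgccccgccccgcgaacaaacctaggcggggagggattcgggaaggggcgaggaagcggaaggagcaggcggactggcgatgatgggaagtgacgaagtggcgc
RAB21, chr12:71754613-71754862, plus strand: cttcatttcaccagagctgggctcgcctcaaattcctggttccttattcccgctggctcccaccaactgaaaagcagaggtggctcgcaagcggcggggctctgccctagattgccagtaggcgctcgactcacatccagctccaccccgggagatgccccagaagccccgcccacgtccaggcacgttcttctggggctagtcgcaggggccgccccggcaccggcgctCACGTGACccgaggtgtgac
RAB31, chr18:9708051-9708300, plus strand: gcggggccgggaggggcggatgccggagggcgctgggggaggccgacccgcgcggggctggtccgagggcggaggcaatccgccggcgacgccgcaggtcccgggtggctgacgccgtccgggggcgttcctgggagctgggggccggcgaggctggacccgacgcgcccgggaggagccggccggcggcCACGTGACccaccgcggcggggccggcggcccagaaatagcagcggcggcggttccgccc
RAB24, chr5:177303720-177303969, minus strand: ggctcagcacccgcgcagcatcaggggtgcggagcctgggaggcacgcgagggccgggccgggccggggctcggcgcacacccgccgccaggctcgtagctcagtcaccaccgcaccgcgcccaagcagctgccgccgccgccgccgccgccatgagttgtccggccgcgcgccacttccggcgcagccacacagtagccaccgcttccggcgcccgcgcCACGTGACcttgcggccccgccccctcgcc

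The capitals begin 123 bases before the start in RAB5A, 60 in RAB31, 30 in RAB24 and 20 in RAB21. RAB5B, RAB5C and RAB22A rose as well, and CACGTGAC is not in their windows. The early endosome gene RAB20 also rose, but no promoter was found for it and it was not searched. Outside that group RAB4B, RAB8B, RAB27B and RAB3C rose without these letters in their windows. A match describes the letters only, and no binding was measured here.

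The granule and secretion genes were the group with the most falls, 5 of 8 tested, with 2 rises (87.5% called). Of all genes, 65.2% were called, 33.2% lower and 32.0% higher. RAB37, a Rab of secretory granules, showed the largest fall among members above 1 CPM. It gave 853 and 727 reads in DMSO and 157 and 151 with CU-T12-9, or 32.7 and 30.4 CPM against 6.71 and 6.67 CPM. The groups were far apart, a 4.71-fold fall (-2.24 ± 0.09, edgeR adjusted p = 7.22e-08). RAB44, a large Rab with EF hands that acts in granule release by mast cells, was at 44.7 and 43.1 CPM against 18.6 and 16.9 CPM, 2.47-fold lower (-1.30 ± 0.08, edgeR adjusted p = 6.36e-07). RAB26, a vesicle Rab related to RAB37, had 26 reads in each DMSO library and 7 and 10 with CU-T12-9, 2.79-fold lower (-1.48 ± 0.36, edgeR adjusted p = 0.00562). This call was not made by DESeq2 (adjusted p = 0.0612, with 0.00173 to 0.0612 over 11 alternatives).

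The abundant secretory Rabs also fell, by less. RAB3D, the exocytic Rab of secretory granules in non-neuronal cells, was the most abundant of the group. It stood at 123 and 128 CPM in DMSO and 78.4 and 76.2 CPM with CU-T12-9, 1.62-fold lower (-0.70 ± 0.05, edgeR adjusted p = 3.56e-06). RAB27A, which docks lytic granules and lysosome-related organelles at the plasma membrane and is mutated in Griscelli syndrome, was at 91.8 and 91.4 CPM against 49.6 and 59.4 CPM, 1.68-fold lower (-0.75 ± 0.08, edgeR adjusted p = 3.48e-05). In each of these genes both treated libraries lay below both DMSO libraries.

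The members that rose in this group were less abundant relatives. RAB27B, the paralog of RAB27A, read 3.61 and 3.63 CPM in DMSO and 6.80 and 10.3 CPM with CU-T12-9 (94, 87, 159 and 233 reads). The CU-T12-9 libraries differed from each other by more than the DMSO libraries did, and both were higher: 2.36-fold (1.24 ± 0.21, edgeR adjusted p = 0.000623). RAB3C, a RAB3 isoform known mainly from neurons and endocrine cells, had 14 and 18 reads in DMSO and 62 and 81 with CU-T12-9. It reached 3.12 ± 0.657 CPM (SD, n = 2) from 0.645 ± 0.151 CPM, 4.83-fold higher (2.27 ± 0.29, edgeR adjusted p = 0.000111). RAB3A was at 6.56 and 5.97 CPM against 7.65 and 7.69 CPM and did not pass the threshold (0.29, 95% interval 0.00 to 0.58, edgeR adjusted p = 0.0692), though it did without CU-T12-9 1 (adjusted p = 0.0445, with 0.0445 to 0.398 over 11 alternatives). RAB3B had 1 to 4 reads per library and was not tested.

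**Figure D3:**
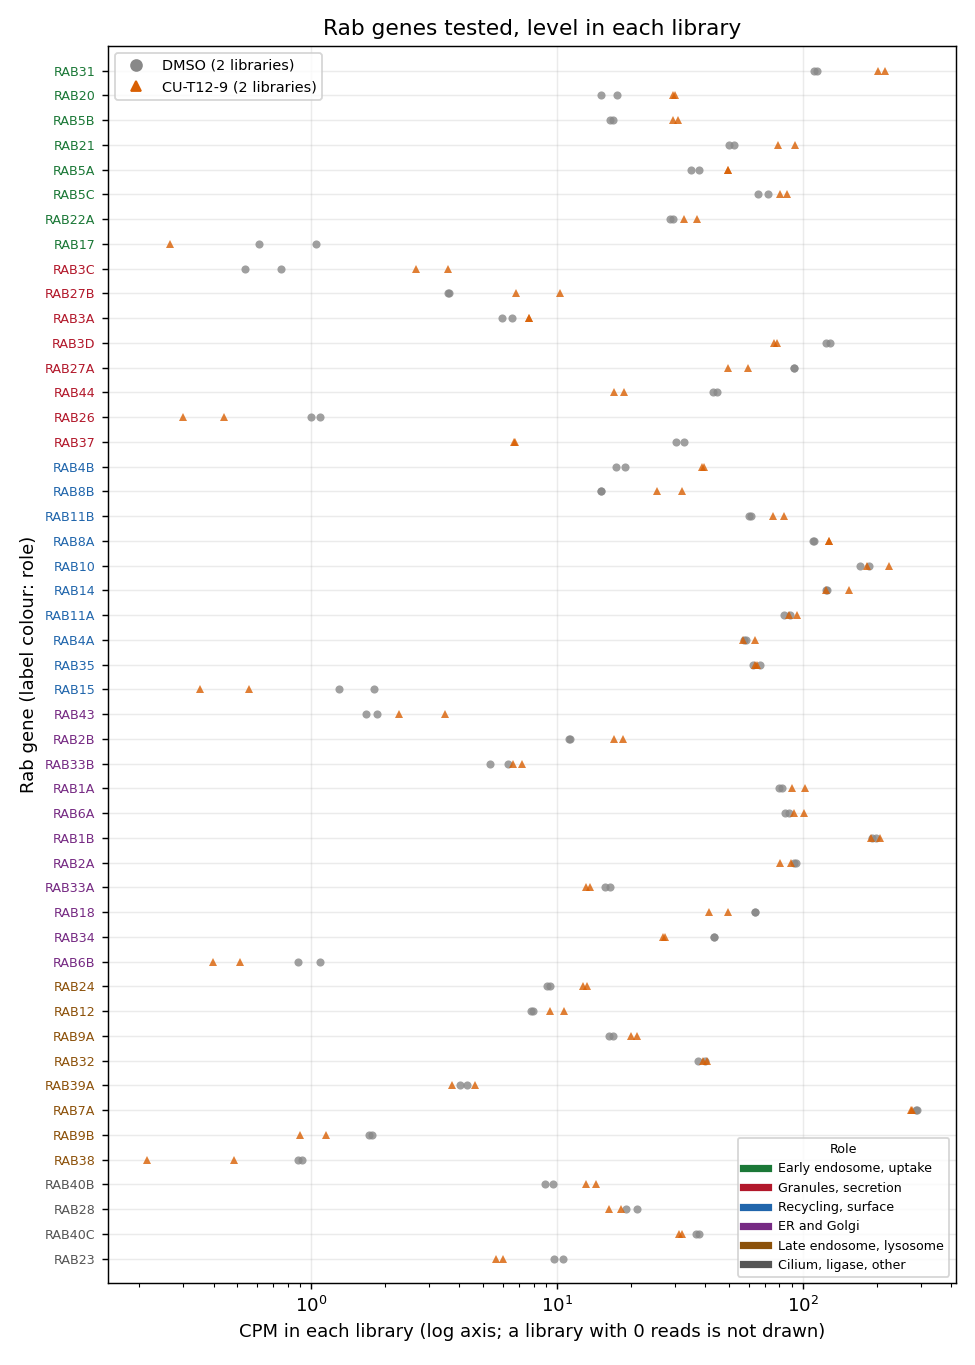
CPM of the 49 tested Rab genes in each of the 4 libraries, on a log axis, grouped by role, with a library at 0 reads not drawn. RAB37 (32.7 and 30.4 against 6.71 and 6.67 CPM) and RAB31 (110 and 114 against 200 and 216 CPM) separate by treatment in opposite directions, while RAB7A and RAB1B stay close together in all 4 libraries.

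Of the 10 tested genes of recycling and surface delivery, 4 rose, 1 fell and 5 did not pass the threshold. That is 50% called, against 65.2% of all genes. The largest rise was RAB4B, a Rab of fast recycling from early endosomes. Its level was 17.4 and 18.9 CPM in DMSO and 38.8 and 39.3 CPM with CU-T12-9, 2.16-fold higher with no overlap (1.11 ± 0.08, edgeR adjusted p = 1.64e-06). RAB4A, its paralog, was at 57.2 and 58.3 CPM against 57.0 and 63.7 CPM, and the groups overlapped (0.06, 95% interval -0.09 to 0.22, edgeR adjusted p = 0.431). RAB8B rose 1.91-fold, from 15.1 CPM in both DMSO libraries to 25.5 and 32.2 CPM (edgeR adjusted p = 8.65e-05). RAB8A, which delivers cargo to the plasma membrane and the primary cilium, moved from 111 and 110 CPM to 128 and 127 CPM (0.21 ± 0.05, edgeR adjusted p = 0.00511). The RAB8A call was lost without DMSO 1 (adjusted p = 0.0869) and without DMSO 2 (0.115), the latter the highest of 11 alternatives that went down to 1.29e-06. RAB11B, of the recycling endosome, was at 60.0 and 61.5 CPM against 75.5 and 83.6 CPM (0.39 ± 0.06, edgeR adjusted p = 0.000615), and RAB11A at 88.3 and 83.8 against 87.4 and 94.3 CPM did not pass (adjusted p = 0.286).

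RAB10, which acts in basolateral and glucose transporter delivery, was the most abundant recycling member. It read 184 and 170 CPM in DMSO and 182 and 223 CPM with CU-T12-9. Only CU-T12-9 2 stood above the DMSO libraries, and the difference did not pass (0.20 ± 0.09, 95% interval -0.01 to 0.40, edgeR adjusted p = 0.0805). RAB14, a Rab between Golgi and endosomes, showed the same layout with 125 and 124 against 124 and 154 CPM. Without CU-T12-9 1, RAB10, RAB14, RAB4A and RAB11A were all called higher, and the count of rises in this group went from 4 to 8. RAB35 did not pass (0.00, 95% interval -0.13 to 0.14). RAB15, a Rab of endosomal recycling known mainly from neurons, fell from 47 and 31 reads to 13 and 8, 3.38-fold lower (-1.76 ± 0.36, edgeR adjusted p = 0.00201).

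The ER and Golgi group split evenly, with 4 of 11 tested genes higher and 4 lower (72.7% called, against 65.2% of all genes). RAB1B, which works between ER and Golgi, was its most abundant member and showed overlapping groups, at 190 and 198 CPM in DMSO and 188 and 204 CPM with CU-T12-9 (0.02 ± 0.06, 95% interval -0.11 to 0.15, edgeR adjusted p = 0.814). Without CU-T12-9 1 it was called higher at a log2 fold change of 0.11 (adjusted p = 0.0216, with 0.0216 to 0.977 over 11 alternatives). Its paralog RAB1A was at 82.1 and 80.0 against 90.3 and 102 CPM (0.24 ± 0.07, edgeR adjusted p = 0.00982), a call lost without DMSO 2 (adjusted p = 0.0768, with 2.41e-12 to 0.0768 over 11 alternatives). RAB34, a Golgi Rab that positions lysosomes and acts in ciliogenesis, fell from 43.3 CPM in both DMSO libraries to 26.8 and 27.3 CPM (-0.68 ± 0.06, edgeR adjusted p = 1.59e-05). RAB18, of ER contacts with lipid droplets, fell from 63.7 and 63.8 CPM to 41.2 and 49.4 CPM (-0.49 ± 0.08, edgeR adjusted p = 0.000644). RAB2B rose from 11.3 and 11.1 CPM to 18.4 and 17.1 CPM (0.66 ± 0.09, edgeR adjusted p = 0.000222). Those last 3 genes did not overlap between the groups. Its more abundant paralog RAB2A, at 93.4 and 91.9 against 80.2 and 89.5 CPM, did not pass (-0.13, edgeR adjusted p = 0.108).

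The other calls of the ER and Golgi group were small or rested on few reads. RAB6A, of retrograde transport to the Golgi, had a log2 fold change of 0.16 and its rarer isoform RAB6B one of -1.10 on 23 and 26 reads against 12 and 9 (edgeR adjusted p = 0.0421 and 0.021). RAB6B shares 6.3% of its exon bases with SRPRB on the opposite strand. SRPRB fell from 3561 and 3190 reads in DMSO to 1778 and 1670 with CU-T12-9 (-0.85). With the strand setting not given, reads in the shared bases cannot be told apart. RAB33A was at -0.26 and RAB43 at 0.71 on 48 and 40 reads against 53 and 79 (edgeR adjusted p = 0.0319 and 0.0366). RAB33B did not pass (0.25, adjusted p = 0.155). DESeq2 and the fits without either DMSO library did not call RAB6A, RAB6B, RAB33A or RAB43. Under DESeq2 the group had 2 rises and 2 falls, without DMSO 1 also 2 and 2, without DMSO 2 it had 1 and 2, and without CU-T12-9 2 it had 2 rises and 4 falls.

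Of the 8 tested late endosome and lysosome genes, 3 rose, 2 fell and 3 did not pass (62.5% called, against 65.2% of all genes). RAB7A, the switch of late endosomes and of phagosome fusion with lysosomes, had more reads than any other Rab gene. It gave 286 and 290 CPM in DMSO and 275 and 277 CPM with CU-T12-9. The groups did not overlap, but the difference was small and did not pass (-0.06 ± 0.05, 95% interval -0.17 to 0.04, edgeR adjusted p = 0.27). RAB32, of lysosome-related organelles and macrophage defence, overlapped between groups at 37.3 and 39.9 against 39.0 and 40.8 CPM (0.05, 95% interval -0.10 to 0.20). RAB24, linked to autophagosomes, rose from 9.10 and 9.35 CPM to 12.7 and 13.2 CPM (0.49 ± 0.10, edgeR adjusted p = 0.00239). RAB39A, which acts at phagosomes and lysosomes, had a log2 fold change of 0.01 with the wide interval of -0.38 to 0.40.

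The remaining late endosome calls had larger p-values. RAB9A, which returns receptors from late endosomes to the Golgi, was at 0.30 (edgeR adjusted p = 0.0107), and RAB12, of transferrin receptor degradation, at 0.34 (adjusted p = 0.0303). RAB38, the partner of RAB32 in melanosome biogenesis, had 23 and 22 reads against 5 and 11 (-1.36, adjusted p = 0.018), and RAB9B had 46 and 41 reads against 21 and 26 (-0.76, adjusted p = 0.0277). DESeq2 called none of these 4, which left 1 rise and no fall in the group. The same held without DMSO 1 and without DMSO 2, and without CU-T12-9 1 no fall was called.

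Of the 4 tested genes of the cilium, ubiquitin ligase adaptors and others, RAB23 and RAB40C fell, RAB40B rose and RAB28 did not pass. That is 75% called, against 65.2% of all genes. RAB23, a negative regulator of Hedgehog signalling, was at 9.67 and 10.5 CPM in DMSO and 5.64 and 6.01 CPM with CU-T12-9 (-0.79 ± 0.12, edgeR adjusted p = 0.000381). Over its exons RAB23 shares 57.7% of its bases with BAG2 on the opposite strand, and BAG2 itself fell (-1.26). The sources used here do not give the strand setting, so reads of these neighbours cannot be told apart. RAB40C, which carries a SOCS box and serves as a ubiquitin ligase adaptor, had the most reads of the group, at 36.5 and 37.8 CPM against 32.1 and 31.3 CPM (-0.23 ± 0.07, edgeR adjusted p = 0.0128). DESeq2 (adjusted p = 0.0936) and the fits without DMSO 1 (0.0595) or DMSO 2 (0.132) did not call RAB40C, leaving 1 fall, and its 11 alternatives ranged from 0.0048 to 0.132. RAB40B, its paralog, rose from 8.91 and 9.65 CPM to 13.1 and 14.3 CPM (0.57 ± 0.11, edgeR adjusted p = 0.00133). RAB28, of the photoreceptor cilium, was at 19.0 and 21.2 against 18.1 and 16.3 CPM (-0.23, edgeR adjusted p = 0.0648).

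Exon overlap touched other members as well. In the GENCODE 29 annotation, 11 of the 61 members share at least 20% of their exon bases with another gene. RAB24 shares 44.8% with MXD3 on the same strand, and MXD3 fell (-1.01) where RAB24 rose. RAB1A shares 22.9% with CEP68 on the opposite strand, and CEP68 rose as RAB1A did (0.29, edgeR adjusted p = 0.0117). Without the strand setting, reads in the bases shared by RAB1A and CEP68 cannot be told apart. RAB43 shares 79.3% with the readthrough gene ISY1-RAB43, which had at most 1 read per library, and RAB4B shares 27.4% with RAB4B-EGLN2, which had 1 to 3.

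The 12 untested members were near or at 0. RAB40A, RAB6C, RAB19, RAB1C and RAB41 had no read in any library. An observed 0 could hide an expected count of about 3 reads, counting error alone considered. In these libraries 3 reads correspond to 0.115 to 0.133 CPM. RAB25, an epithelial recycling Rab, had 1 read in all, and RAB39B and RAB42 had 1 to 3 per library. RAB13, a Rab of tight junction traffic, had 0 reads in both DMSO libraries and 4 in each CU-T12-9 library. Against a floor of 3 reads over the DMSO group that is 2.90-fold higher. The counting error of the CU-T12-9 reads is not allowed for, so this value is not a lower bound. RAB36 and RAB30 had 6 to 15 reads per library.

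Levels of different genes can be compared only per length, here as CPM per kilobase of merged exon (RPKM). On that scale RAB7A led in DMSO with 106 ± 0.913 RPKM (SD, n = 2), followed by RAB1B with 96.7 ± 2.80 and RAB10 with 48.8 ± 2.86. RAB32 (31.7 ± 1.49), RAB14 (28.9 ± 0.174) and RAB3D (28.4 ± 0.761) came next, and RAB14 and RAB3D did not differ beyond their spread. RAB5C, RAB11B and RAB1A lay between 24.5 and 24.9 RPKM and could not be ordered. With CU-T12-9 the leaders were still RAB7A (102 ± 0.557), RAB1B (97.8 ± 5.68) and RAB10 (55.9 ± 8.0), of which RAB7A and RAB1B no longer differed beyond their spread. RAB31 went from 20.1 ± 0.387 to 37.3 ± 1.95 RPKM, and RAB3D from 28.4 to 17.5 ± 0.365.

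Many Rabs come as paralogs that serve the same step, so the split of reads within such pairs was followed. For each of 17 pairs the share of one gene was taken from reads per kilobase. RAB4B made up 20.4% and 21.4% of the RAB4 pair in DMSO and 36.4% and 34.2% with CU-T12-9, a gain of 14.4 percentage points. RAB27B made up 2.88% and 2.91% of the RAB27 pair and then 9.38% and 11.6%. RAB2B went from 15.9% in both DMSO libraries to 26.5% and 23%, RAB8B from 11.9% and 12.1% to 16.6% and 20.2%, and RAB40B from 14.1% and 14.7% to 21.6% and 23.6%. In these 5 pairs the less abundant paralog gained share, and it remained the less abundant one. RAB5B gained on RAB5A, from 19.96% and 21.7% to 26.5% and 25.6%. Over the 17 pairs, which share some genes, the less abundant gene gained share in 12 and lost it in 5. Those that lost share were RAB9B (5.58% and 5.61% to 2.36% and 3.16%), RAB6B, RAB38, RAB11A and RAB22A. The groups did not overlap in 17 of 17 pairs. The CPM of the groups did not overlap in 82.3% of all genes tested either, nor in 41 of the 49 Rab genes, and the share over all possible gene pairs was not computed. With 2 libraries against 2, the exact two-sided permutation test cannot go below 0.333 for any pair, and each pair gave that value.

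**Figure D4:**
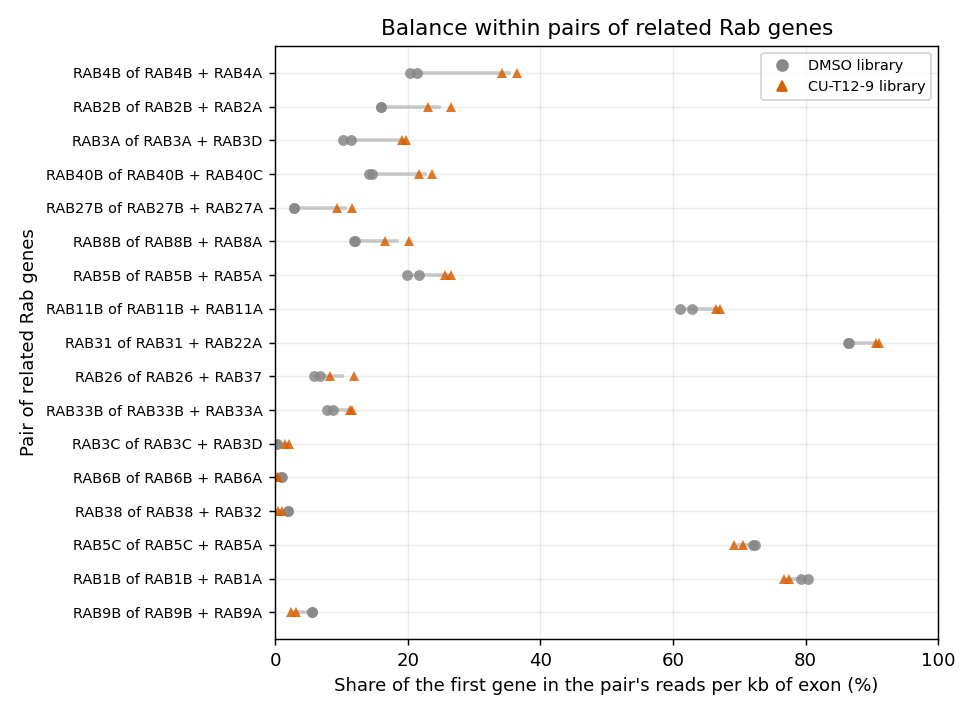
Share of the first-named gene in the reads per kilobase of each of 17 Rab paralog pairs, in percent, one point per library and a line between the group means. RAB4B moved from 20.4% and 21.4% of the RAB4 pair in DMSO to 36.4% and 34.2% with CU-T12-9, and RAB27B from 2.88% and 2.91% to 9.38% and 11.6%.

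The genes that run the Rab cycle were read out from 4 lists. Of 55 tested exchange factors, 27 rose and 8 fell, so 63.6% were called, close to the 65.2% of all genes (32.0% higher, 33.2% lower). Their median log2 fold change was 0.20. RIN2, an exchange factor for RAB5, had 6 and 5 reads in DMSO and 57 and 55 with CU-T12-9 (3.44 ± 0.32, edgeR adjusted p = 1.38e-05). DENND5A, which is linked to RAB6 and RAB39 proteins, rose from 45.8 and 44.3 CPM to 136 and 130 CPM (1.56 ± 0.06). The DENN-domain gene SBF2 rose from 7.98 and 8.44 CPM to 18.5 and 19.6 CPM (1.21 ± 0.10). ALS2CL (-1.56 ± 0.37), FAM45A (-0.99 ± 0.06) and HPS4 (-0.95 ± 0.07) were the falls of largest size. HPS4 forms with HPS1 the exchange factor of RAB32 and RAB38. HPS1, picked out after its values were seen, rose from 66.9 and 69.4 CPM to 144 and 156 CPM (1.14 ± 0.06), while HPS4 fell from 62.8 and 62.3 CPM to 34.1 and 30.7 CPM.

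Of 35 tested GTPase-activating proteins, 15 rose and 5 fell (57.1% called, against 65.2% of all genes, median 0.20). TBC1D17 rose from 17.9 and 17.3 CPM to 48.0 and 47.3 CPM (1.44 ± 0.07, edgeR adjusted p = 1.67e-07), RABGAP1 by 0.76 ± 0.07 and EVI5, which acts on RAB11, by 0.68 ± 0.07 on the log2 scale. TBC1D4, which acts on RAB10 in glucose transporter traffic, went from 157 and 122 reads to 30 and 51 (-1.66 ± 0.24, edgeR adjusted p = 0.000272), TBC1D24 was at -0.57 ± 0.09 and TBC1D1 at -0.52 ± 0.06.

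The prenylation, GDI and membrane insertion list had 10 rises and 2 falls among 15 genes (80% called, against 65.2% of all genes, median 0.43). ARL6IP5, a PRA1-family membrane protein, rose from 66.1 and 65.5 CPM to 327 and 378 CPM (2.42 ± 0.07, edgeR adjusted p = 1.07e-08), and RABAC1, of the same family, by 0.70 ± 0.10. GDI2, at 343 and 349 against 357 and 390 CPM, did not pass (0.11, edgeR adjusted p = 0.108). The escort proteins that present Rabs for prenylation went apart: CHM rose from 19.6 and 19.3 to 24.1 and 28.4 CPM (0.43 ± 0.09) and CHML fell from 91.9 and 91.3 to 47.6 and 59.0 CPM (-0.78 ± 0.09). YIPF2 fell by 0.31 on the log2 scale, and the prenyl transferase subunits RABGGTA and RABGGTB did not pass (edgeR adjusted p = 0.146 and 0.239).

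**Figure D5:**
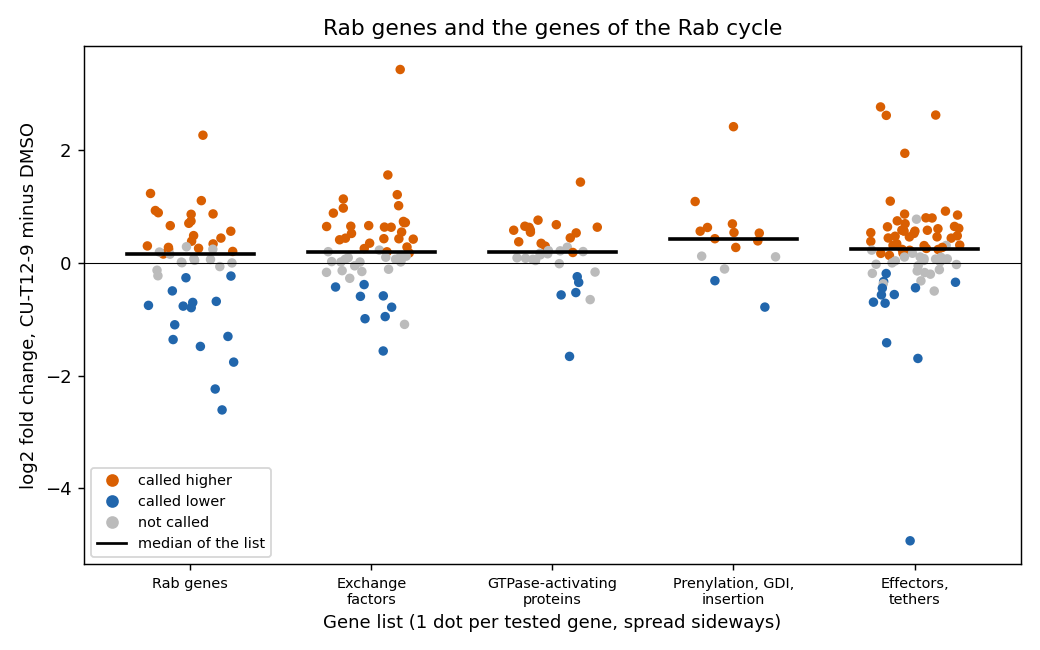
Log2 fold changes of the tested genes of the Rab cycle, one point per gene, for the Rab genes and the 4 lists, coloured by call, with a bar at each median. The medians are 0.16 for Rab genes, 0.20 for exchange factors, 0.20 for GTPase-activating proteins, 0.43 for prenylation, GDI and membrane insertion and 0.24 for effectors and tethers, against 0.00 for all genes (not drawn).

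Of 79 tested effectors and tethers, 42 rose and 12 fell (68.4% called, against 65.2% of all genes, median 0.24). OPTN, an effector of RAB8 and an autophagy receptor, rose from 8.98 and 9.48 CPM to 62.9 and 63.2 CPM (2.77 ± 0.07, edgeR adjusted p = 5.15e-09). SYTL2, a RAB27 effector, had 3 and 7 reads against 31 and 27 (2.62 ± 0.43), and RUFY3 had 51 and 45 against 186 and 156 (1.95 ± 0.17). KIF20A, a mitotic kinesin that binds RAB6, fell from 58.8 and 56.7 CPM to 17.5 and 18.3 CPM (-1.69 ± 0.07, edgeR adjusted p = 5.78e-08), and FYCO1, which links RAB7 to kinesin, by 0.71 ± 0.10. SYTL1, another RAB27 effector, was at -0.69 ± 0.25 (edgeR adjusted p = 0.0335), a call lost under DESeq2 and without DMSO 2 or CU-T12-9 1 (3.49e-05 to 0.189 over 11 alternatives). Some other partners of RAB27A, picked out after their values were seen, moved opposite to it. UNC13D, which primes granules, rose from 159 CPM in both DMSO libraries to 234 and 253 CPM (0.62 ± 0.06). The myosin MYO5A rose from 50.9 and 52.2 CPM to 99.8 and 95.4 CPM (0.92 ± 0.06). Not all did: SYTL1 fell as RAB27A did, and EXPH5, of the same list, did not pass (0.31, edgeR adjusted p = 0.483).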

How the data were processed

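RNA of MV4;11 cells was sequenced in 4 libraries, 2 with DMSO and 2 with CU-T12-9, grouped by their labels. The authors deposited 1 table of raw read counts per gene symbol. Per the submitters' processing notes, FastQC 0.11.7, TopHat2 (listed as 2.9.13), featureCounts 1.5.2 and the build GRCh37 were used. The sources used here give no annotation, strand setting or handling of multi-mapping reads, so reads may be split between near-identical paralogs. From the counts, edgeR 4.0.16 (R 4.3.3) computed the quasi-likelihood test after its expression filter, with TMM scaling, no covariate, Benjamini-Hochberg adjustment over 14018 genes and a threshold of 0.05. Standard errors are the fold change over the square root of F. Role groups, paralog pairs and lists were written by hand, and the members and lists were chosen with earlier results of these data known. Members were given in full where they were called, changed at least 2-fold and reached 1 CPM in a group, or had the most reads of their role. Of each list, the 3 largest rises and falls among called genes reaching 1 CPM are named, except for a result that is not reported here. Exon lengths and overlaps came from GENCODE 29 (GRCh38) and promoters from RefSeq, matched by symbol.

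Replicates correlated at 0.996 and 0.994 in log2 CPM, and their counts differed beyond sampling noise (chi-square per degree of freedom 2.42 and 6.99). The scripts were tested on simulated data. Alternatives were other scalings, DESeq2 1.42.0, limma-voom (limma 3.58.1), other filters, a fold threshold of 1.5, a replicate block and leaving out each library. The test against a fold of 1.5 is not among the 11 alternatives over which ranges of adjusted p are given.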

Additional observations from a re-analysis of the deposited data

How the results depend on the processing

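No called Rab gene changed sign under any alternative run, and 21 of 36 kept their call under all of them other than the 1.5-fold test, while 14 lost it in at least 1 and RAB17 was removed by the 1 CPM filter. The median log2 fold change of all genes moved by at most 0.04. RLE scaling, limma-voom and the 1 CPM filter (46 members left) changed no member's call. Upper-quartile scaling and no filter added RAB10, and no filter lost RAB6A. Tested against a fold of 1.5, 1761 genes were higher and 1688 lower, with 8 Rab genes higher and 7 lower. By role that test left 4 early endosome genes higher and 1 lower, and 2 recycling genes higher and 1 lower. The granule group kept 2 genes higher and 5 lower. There were 0 calls in either direction for ER and Golgi, late endosome and cilium genes. By list it left 10 exchange factors higher and 4 lower, 2 activating proteins higher and 1 lower, 2 prenylation and GDI genes higher and 1 lower, and 11 effectors higher and 2 lower. DESeq2 called 9 Rab genes lower, of which 2 ER and Golgi (with 2 higher), 1 cilium and 0 late endosome genes (with 1 higher). With the 1 CPM filter, 0 early endosome and 1 late endosome gene were lower.

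Leaving out each library in turn gave 13 to 28 Rab genes higher (13 without DMSO 2), 1 to 6 ER and Golgi genes higher and 2 to 4 lower, 1 to 3 late endosome genes higher and 0 to 2 lower, 3 to 8 recycling genes higher and 1 to 3 cilium genes lower. The lone library was assumed to vary like the other group. The cause of these changes was not tested. The labels number the libraries 1 and 2 in both groups, but same-numbered libraries did not deviate together (correlation 0.00795). A fit with the replicate block called 21 Rab genes higher and 15 lower, with no member's call changed, and 4488 and 4655 genes in all.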
